A study of Mus musculus with 6 samples.

Results

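The genes Ndrg1, Ndrg2, Ndrg3, Ndrg4, Ier3, Ankrd37, Ppp1r16b, Fam162a and Mxi1 were followed in heads of mouse embryos that lack Arid3b. They are the 9 members of a set of hypoxia-responsive genes outside glycolysis, completed with the paralogues of Ndrg1, out of 20021 named genes with a probe on the array. Some of them were chosen because they were among the largest rises in null heads, so their differences between the groups are given as a description without a test. The samples were 3 pools from Arid3b-null embryos and 3 pools from wild type embryos at embryonic day 9.5. Each pool held the heads, with the first branchial arch, of 4 embryos, and its RNA was labelled with Cy3 and hybridised to 1 one-colour Agilent array. Strain, allele and litters were not stated in the labels used, and p-values therefore measure only the spread between these pools.

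Cells answer a shortage of oxygen mainly through the hypoxia-inducible factors. Their alpha subunits are hydroxylated by the Egln enzymes when oxygen is present, bound by the Vhl protein and degraded; in low oxygen they persist, pair with Arnt and bind a short DNA core, ACGTG or GCGTG, near their target genes. The targets reach well beyond glucose use. The 9 genes include Ndrg1 of the N-myc downstream-regulated family, with Ndrg2, Ndrg3 and Ndrg4 added as its paralogues and not as targets. The others are an immediate early survival gene (Ier3), a small ankyrin repeat protein (Ankrd37) and a regulatory subunit of protein phosphatase 1 (Ppp1r16b). The last are a mitochondrial protein linked to cell death (Fam162a) and a partner of Max that opposes Myc (Mxi1).

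Signals are written as log2 of the background-subtracted signal divided by the 75th percentile of the same array, so 0 stands for a signal at that percentile. Levels of different genes come from different probes and are not compared. Each slide carried the null and the wild type array of 1 replicate number, null at position 2 and wild type at position 1, and these positions cannot be told apart from the genotypes. Between 67.9% and 70.3% of spots were well above background, the 75th percentile lay between 626 and 977.3 intensity units, and no spot was saturated. Arid3b itself averaged 1.26 ± 0.19 in null heads and 2.45 ± 0.58 in wild type heads (SD, n = 3 each), and each of its 3 probes was lower on all null arrays. The limma adjusted p of its brightest probe was 0.0265, and the call did not hold when any 1 null array was left out or when dim probes were not filtered (up to 0.0890). Where these probes lie relative to the deletion was not known here.

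All 9 members had a probe matched through RefSeq, 10 probes in all. Gene names on the array were not searched, so further probes of a member may have been missed. A gene was tested if the arrays of 1 group or both all gave a signal well above background; 8 members passed and Mxi1 did not. Of the 8, 5 were past a limma adjusted p of 0.05 as higher in null heads and none as lower, beside 12.3% of all 14906 tested genes called higher and 11.2% called lower; since the choice of members used this contrast, nothing is read from that count. The null arrays lay above all wild type arrays for 6 members and overlapped with them for 2, beside 20.6% of all tested genes with null arrays all above. Ordered by the log2 difference from the highest down, Ppp1r16b held rank 4, Ndrg1 rank 6, Ier3 rank 12, Ndrg2 rank 27 and Ankrd37 rank 105 of the 14906 genes, while Fam162a held rank 1427, Ndrg3 rank 9411 and Ndrg4 rank 10977.

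**Figure D1:**
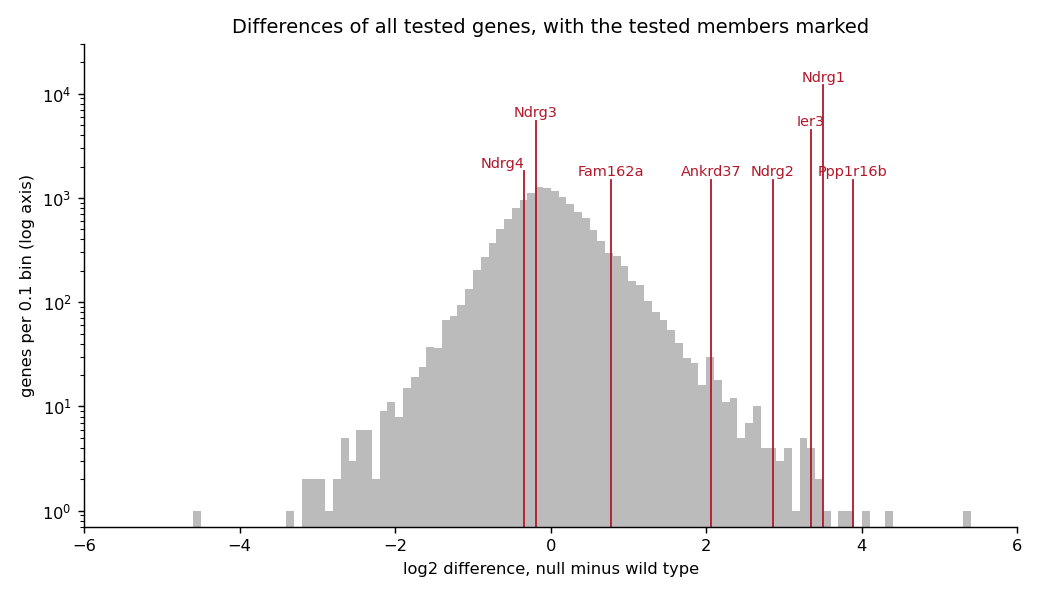
Histogram of the log2 differences, null minus wild type, of the 14906 tested genes (horizontal axis, bins of 0.1; vertical axis, genes per bin on a log scale), with the 8 tested members as red lines. Ppp1r16b, Ndrg1, Ier3 and Ndrg2 stand far out on the right at 3.88, 3.51, 3.34 and 2.86, Ankrd37 is at 2.06, and Fam162a, Ndrg3 and Ndrg4 lie within the bulk of genes.

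Ndrg1 encodes a cytoplasmic protein with an alpha/beta hydrolase fold and no known hydrolase activity; it is a standard marker of hypoxia and is needed in Schwann cells to keep myelin. On its single matched probe (A_51_P405606, gene on chromosome 15) it read 2.58, 2.70 and 2.43 on null arrays 1, 2 and 3. On wild type arrays 1, 2 and 3 it read -1.35, 0.02 and -1.47. The 3 null arrays were close to each other, whereas wild type replicate 2 stood well above the other wild type arrays, and the groups did not overlap. The log2 difference was 3.51 ± 0.38 (SE from limma), or 11.4-fold, with group means of 2.57 ± 0.13 in null and -0.93 ± 0.83 in wild type heads (SD, n = 3 each). Within slides 1, 2 and 3 the difference was 3.93, 2.68 and 3.91.

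Ndrg2, best known from the adult brain where astrocytes express it, was the paralogue whose groups also lay apart. Its probe (A_51_P176352, gene on chromosome 14) read 0.74, 1.0 and 1.07 on null arrays, against -1.96, -2.14 and -1.65 on wild type arrays. The groups lay 2.39 log2 units apart at their nearest arrays, nearly the same gap as for Ndrg1 (2.41). The log2 difference was 2.86 ± 0.17, or 7.24-fold, and 2.70, 3.14 and 2.73 within slides 1, 2 and 3. Wild type replicate 2, the highest wild type array for Ndrg1, was the lowest for Ndrg2.

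Ndrg3 and Ndrg4 had small differences of the opposite sign. Ndrg3, whose human protein binds lactate and is controlled by oxygen at the level of protein stability, read 0.73, 0.81 and 0.53 on null arrays, against 1.06, 0.93 and 0.66 on wild type arrays. Its groups overlapped, with a log2 difference of -0.19 ± 0.16. Ndrg4, a gene of neurons and heart muscle, read -1.59, -1.25 and -1.74 on null arrays, against -0.98, -1.25 and -1.32 on wild type arrays. Its groups overlapped as well, since null replicate 2 lay above wild type replicates 2 and 3, and the log2 difference was -0.34 ± 0.18. Both probes (A_55_P1993293 for Ndrg3 on chromosome 2, A_55_P2019483 for Ndrg4 on chromosome 8) were well above background on all 6 arrays, with signals of 1045 to 1420 units for Ndrg3 and 230 to 344 units for Ndrg4.

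Set against its paralogues, the log2 difference of Ndrg1 exceeded the mean of the other 3 by 2.73, with 3.34, 1.67 and 3.18 within slides 1, 2 and 3. Against Ndrg3 alone the excess was 3.70 and against Ndrg4 alone 3.84, positive within every slide. Against Ndrg2 it was 0.65, with 1.23, -0.46 and 1.18 within slides 1, 2 and 3, so the order of Ndrg1 and Ndrg2 turned on slide 2 and their difference was smaller than its spread over slides (SD 0.96). These comparisons carry no test, because Ndrg1 was chosen on this contrast. The probe of each paralogue is annotated to 1 RefSeq transcript (the table lists 14 for Ndrg2, 14 for Ndrg3 and 15 for Ndrg4), so other transcripts may not have been measured.

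**Figure D2:**
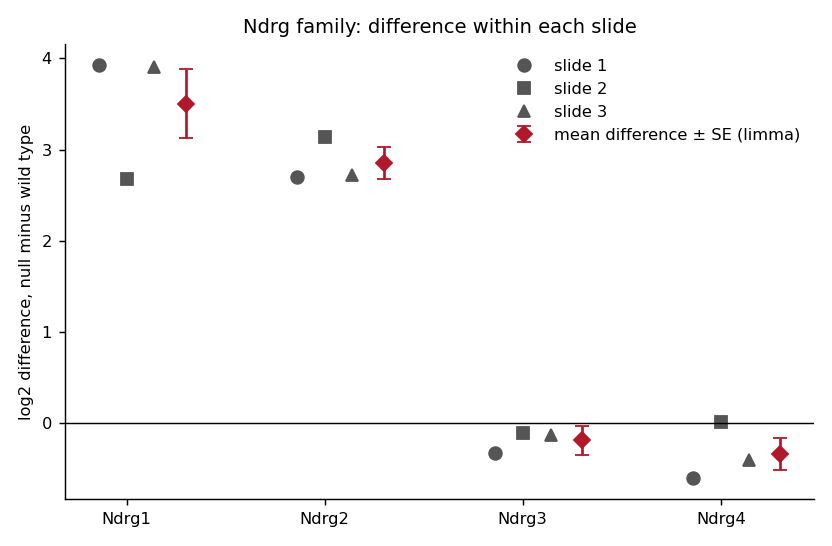
Log2 difference, null minus wild type (vertical axis), of the 4 Ndrg genes within each of the 3 slides (grey symbols) and as the mean with its limma SE (red). Ndrg1 and Ndrg2 lie between 2.68 and 3.93 on every slide, Ndrg3 and Ndrg4 between -0.61 and 0.01.

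Genes that act on NDRG1 gave no call, beside 23.5% of all tested genes called in either direction. Of 7, 0 passed in limma (2 at an unadjusted p under 0.05): the kinases Sgk1, Sgk2 and Sgk3 and Gsk3a and Gsk3b, which phosphorylate the protein, and Mycn and Myc, reported to repress the gene, with a median log2 difference of -0.43 beside -0.04 over all tested genes. Mycn stood at 0.26 ± 0.13 and Myc at -0.43 ± 0.14 (limma adjusted p of 0.189 and 0.0730). Myc was called lower with normexp, with array weights and without wild type replicate 3, and Mycn was called higher with normexp. Sgk1, Sgk2 and Sgk3 were called lower with array weights, and Sgk3 also without wild type replicate 3.

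Ier3 encodes a short-lived protein of the immediate early response that affects cell survival and is known as a target of NF-kappaB. Its probe (A_51_P286488, chromosome 17) read -0.26, -0.21 and -0.25 on null arrays, against -3.94, -3.22 and -3.58 on wild type arrays. The null arrays lay close together (SD 0.03) and the wild type arrays less so (SD 0.36), and the nearest arrays of the groups were 2.96 apart. The log2 difference was 3.34 ± 0.20, or 10.1-fold. The signal was 543 to 823 units in null and 44.2 to 76.6 units in wild type heads, close to the local background of 40 to 47 units that had been subtracted; with normexp background correction the difference was 2.27.

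In the class of Ier3 some genes were called higher and most did not pass, as was so for 11400 of all 14906 tested genes. Of 24 immediate early genes 22 were tested, 7 were higher in null heads in limma, 0 were lower and 15 did not pass, beside 12.3% of all genes called higher and 11.2% called lower, with a median of 0.29. The 4 with the smallest p were the nuclear receptor gene Nr4a1 (1.26 ± 0.15, limma adjusted p 0.00296), the stress factor gene Atf3 (1.77 ± 0.24, 0.00402), the small Maf gene Maff (1.52 ± 0.21, 0.00433) and Egr2 (1.15 ± 0.22, 0.0116). Egr2 no longer passed when null replicate 1 or 3 was left out (limma adjusted p up to 0.0562). The other called genes were Ccn1, Ccn2 and Fosl2. Ccn1 lost its call without the same null replicates (up to 0.0691). Ccn2 lost it without replicate 1 or 2 of either group (up to 0.0901). Fosl2, at a limma adjusted p of 0.0469, lost it with normexp and with the replicate block, among other settings. The other Ier genes stood at -0.17 ± 0.16 for Ier2, 0.01 ± 0.16 for Ier5 and -0.02 ± 0.23 for Ier5l, none of which passed. Fos was at 0.48 ± 0.51 and Junb at 0.07 ± 0.30. Among genes that did not pass, Zfp36 and Egr1 had the largest rises (limma adjusted p 0.0631 and 0.120). Both were called higher with the replicate block and with array weights, among other settings. Zfp36 was well above background on only 1 wild type array, and its difference was 0.15 with normexp.

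Ankrd37 encodes a small protein of ankyrin repeats and is a direct target of hypoxia-inducible factor 1 in human cells. It read 1.32, 1.54 and 1.31 on null arrays, against -0.46, -0.56 and -0.99 on wild type arrays (probe A_52_P319438, chromosome 8). All null arrays were above all wild type arrays, by 1.76 log2 units at the nearest. The log2 difference was 2.06 ± 0.18, or 4.17-fold, with 1.78, 2.10 and 2.30 within slides 1, 2 and 3, and it ran from 1.90 to 2.17 over all 16 alternative settings.

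Ppp1r16b, also called TIMAP, brings protein phosphatase 1 to the plasma membrane and is known for its enrichment in endothelial cells. Its brightest probe (A_55_P2057040, chromosome 2) read -0.52, -0.16 and -0.70 on null arrays, against -4.25, -4.02 and -4.76 on wild type arrays. A second probe (A_55_P2000172), annotated to the same transcript, read -1.52, -1.31 and -1.52 on null arrays, against -4.69, -3.43 and -3.93 on wild type arrays. On both probes the groups lay apart, by 3.32 and 1.92 log2 units, but the size differed: 3.88 ± 0.23 (14.8-fold) on the brightest and 2.57 ± 0.30 (5.94-fold) on the second, or 3.23 as their mean. Wild type signals of the brightest probe were only 24.4 to 44.1 units after background subtraction, against 483 to 603 units in null heads, and the difference was 2.71 with normexp.

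The phosphatase family of Ppp1r16b and endothelial markers gave 1 call between them, beside 23.5% of all tested genes called in either direction. Among 7 genes of the protein phosphatase 1 catalytic subunits and the myosin phosphatase targeting family only its nearest relative Ppp1r16a passed, as lower (-0.46 ± 0.12, limma adjusted p 0.0365), and that call was lost in 11 of 16 alternative settings; its second probe read 0.15. Of 16 endothelial markers 0 passed in limma (3 at an unadjusted p under 0.05), with a median of 0.17. Their summed signal was 38.2 to 42.4 times the 75th percentile in null and 37.6 to 41.3 times in wild type heads, and all 16 were well above background on all 6 arrays. Pecam1 stood at 0.13 ± 0.29, Tek at 0.07 ± 0.36 and Cdh5 at -0.63 ± 0.20, none past the threshold. In alternative settings Cdh5 was called lower in 5, Eng higher in 3, among them the replicate block, and Tie1, Erg, Plvap and Robo4 higher in 2 each. A probe of Kdr read 0.76 and its brighter one -0.22. In such bulk samples fewer cells of a type and less RNA per cell cannot be told apart.

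Fam162a encodes a mitochondrial protein that promotes cell death in hypoxic human cells. Its probe (A_51_P115159, chromosome 16) is printed 10 times on each array, which shows the spread between spots of 1 array. The spread between arrays joins the samples with labelling, hybridisation and scaling, which cannot be told apart here. The means of the 10 spots were 4.24, 4.68 and 4.25 on null arrays, against 3.94, 3.80 and 3.11 on wild type arrays. Spots of 1 array had an SD of 0.03 to 0.05, whereas arrays of 1 group had an SD of 0.26 in null and 0.44 in wild type heads, so spots of an array differed far less than arrays of a group. The groups did not overlap, but their nearest arrays were only 0.30 apart, and the log2 difference was 0.77 ± 0.25 (1.71-fold), from 0.30 within slide 1 to 1.14 within slide 3. Wild type replicate 3 was the low array. Without it the difference was 0.52, the lowest over the 16 alternative settings, and the highest was 0.98, in the deposited table.

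**Figure D3:**
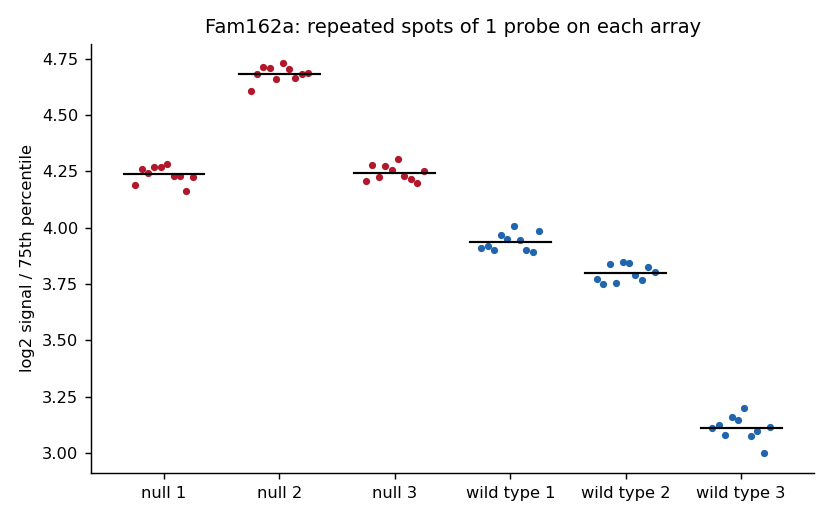
Signal of the 10 spots of the Fam162a probe on each array (points; vertical axis, log2 signal relative to the 75th percentile; black lines, means of the array). Spots of an array lie close together, null arrays average 4.24 to 4.68 and wild type arrays 3.11 to 3.94, with wild type 3 set apart at the bottom.

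Other mitochondrial channel and cell death genes held calls in both directions, and most did not pass, as was so for 11400 of all 14906 tested genes. Of 22 tested, 4 were higher and 4 lower in limma and 14 did not pass, beside 12.3% of all genes called higher and 11.2% called lower, with a median of -0.13. Bnip3, a mitophagy receptor and hypoxia target, was higher (2.39 ± 0.19, adjusted p 0.000907; 2.34 and 2.42 on its other probes), as were the BH3-only gene Pmaip1 (1.30 ± 0.16, 0.00297), Bnip3l and Bbc3. Bad, another BH3-only gene, was lower (-0.97 ± 0.14, 0.00467), as were cytochrome c, Cycs (-1.14 ± 0.21, 0.0101), Aifm1 and Endog. The calls of Aifm1 and Endog were each lost in 5 of 16 alternative settings, that of Bbc3 in 3 and that of Bnip3l in 1. The paralogue Fam162b stood at 0.20 ± 0.16 and did not pass (limma adjusted p 0.401).

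Mxi1 could not be assessed on the probe matched to it. That probe (A_55_P1987096, chromosome 19) is annotated to 1 of the 12 RefSeq transcripts listed for the gene. It did not stand well above background on any null or wild type array. After background subtraction the signal was 2.10, 1.83 and 1.94 units on null arrays, against 1.73, 3.11 and 1.57 units on wild type arrays, and the raw medians of 41 to 45 units lay at the local background of 36 to 45 units. No fold is given, and whether other Mxi1 transcripts differed was not measured here. Of 12 genes of the Myc and Max network around it, 0 passed in limma (3 at an unadjusted p under 0.05), with a median of -0.12 and a range of -0.77 (Mlxip) to 0.46 (Mxd4). The other probe of Mxd4 had the opposite sign, -0.40. Of 6 genes of the Sin3 and histone deacetylase complex that MXI1 recruits, 0 passed in limma and 0 had an unadjusted p under 0.05. Both counts stand beside 23.5% of all tested genes called in either direction.

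**Figure D4:**
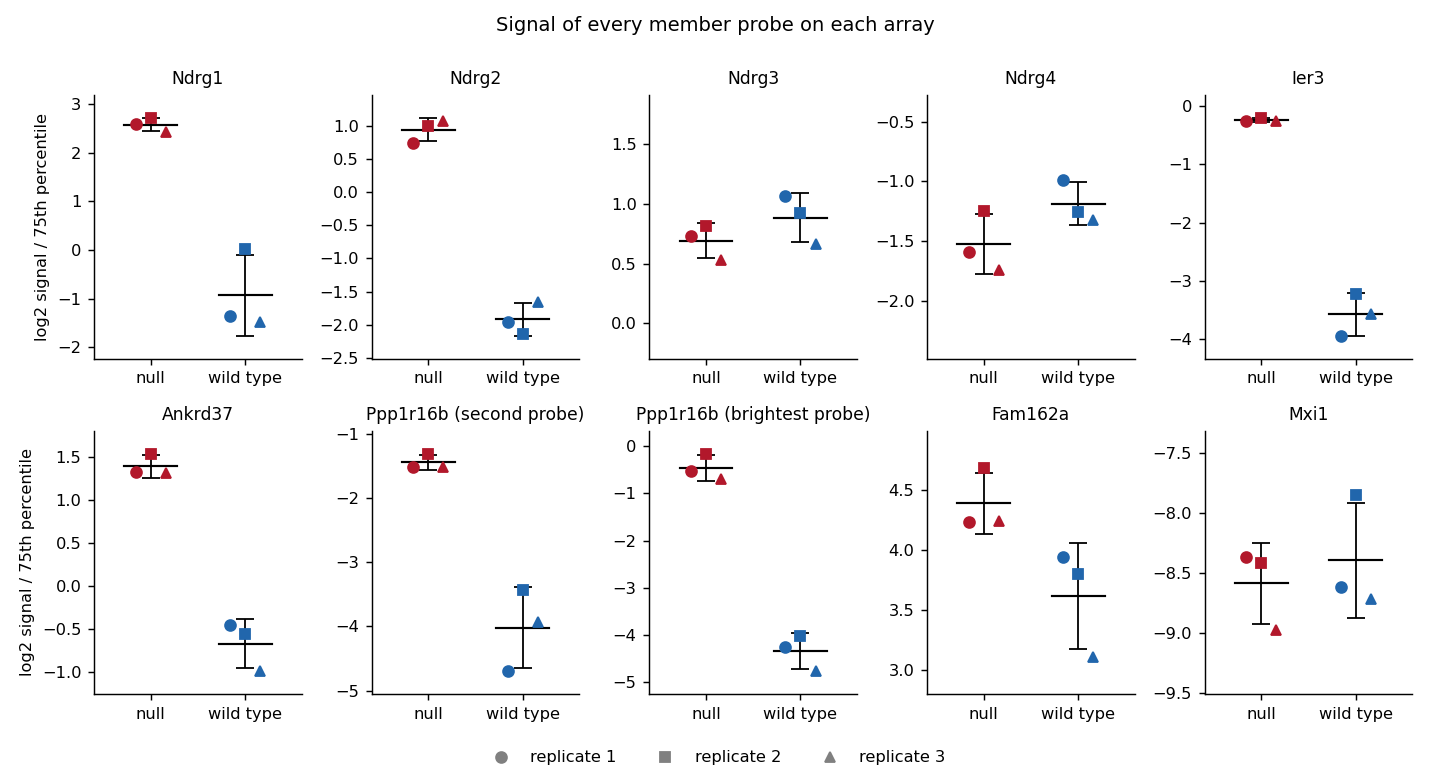
Signal of every member probe (vertical axes, log2 of signal over the 75th percentile of the array, scales differ between panels) on null arrays (red) and wild type arrays (blue); lines are means with SD, n = 3. Ndrg1, Ndrg2, Ier3, Ankrd37 and both Ppp1r16b probes show groups at least 1.76 apart, Fam162a 0.30, Ndrg3 and Ndrg4 overlap, and Mxi1 is not above background on any array.

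Promoter windows show how the DNA core of the hypoxia-inducible factors is spread over these genes. RefSeq windows of 300 bases (250 before and 50 after a start, assembly GRCm38.p6) matched 8 of the 9 members, all but Ndrg1, with 17 windows, some of which overlap. They were searched on both strands for ACGTG and GCGTG, which read CACGT and CACGC on the other strand; ACGTG also lies within CACGTG, the E-box of the Myc and Max network, so 1 E-box counts on both strands. Each of the 8 members held a match in at least 1 window, beside 46.7% of all genes and 84.0% of the other hypoxia targets with a window. Such a share rises with the windows per gene, which numbered 17 for 8 members, 32851 for 27025 genes and 37 for 25 other targets. By window, 11 of 17 held a match (64.7%), beside 43.8% of all 32851 windows and 73.0% of 37 windows of other hypoxia targets. The members' windows were richer in G and C than all windows (median 62.7% against 52.7%), and the part of this in the shares was not tested; a match is a run of letters and not a site. For the 5 members other than Ndrg1 whose null arrays all lay above wild type, the window with the most matches is shown, with that of Ndrg4, whose groups overlapped, for contrast; capitals mark the matches, each is written 5′ to 3′ on the strand of the gene, and positions count from 1 at the start, with -1 just before it.
Ankrd37, chr8:45999801-46000100, minus strand: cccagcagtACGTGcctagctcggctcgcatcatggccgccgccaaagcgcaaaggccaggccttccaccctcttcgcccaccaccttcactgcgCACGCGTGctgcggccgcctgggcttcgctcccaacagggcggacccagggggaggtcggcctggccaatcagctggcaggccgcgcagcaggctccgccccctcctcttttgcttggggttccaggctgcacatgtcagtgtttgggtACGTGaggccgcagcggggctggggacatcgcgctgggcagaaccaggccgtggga
Fam162a, chr16:36071512-36071811, minus strand: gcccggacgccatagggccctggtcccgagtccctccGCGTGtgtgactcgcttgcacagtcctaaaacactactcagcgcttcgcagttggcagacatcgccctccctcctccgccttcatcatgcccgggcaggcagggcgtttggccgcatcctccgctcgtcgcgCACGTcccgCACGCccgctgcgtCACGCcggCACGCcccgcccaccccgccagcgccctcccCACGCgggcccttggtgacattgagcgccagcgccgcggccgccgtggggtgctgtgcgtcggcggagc
Ndrg2, chr14:51913439-51913738, minus strand: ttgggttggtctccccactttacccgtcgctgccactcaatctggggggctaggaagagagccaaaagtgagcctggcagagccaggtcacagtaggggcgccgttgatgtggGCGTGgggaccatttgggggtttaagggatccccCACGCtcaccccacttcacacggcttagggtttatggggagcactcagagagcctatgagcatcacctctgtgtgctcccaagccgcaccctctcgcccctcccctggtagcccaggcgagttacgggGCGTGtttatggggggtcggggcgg
Ppp1r16b, chr2:158666483-158666782, plus strand: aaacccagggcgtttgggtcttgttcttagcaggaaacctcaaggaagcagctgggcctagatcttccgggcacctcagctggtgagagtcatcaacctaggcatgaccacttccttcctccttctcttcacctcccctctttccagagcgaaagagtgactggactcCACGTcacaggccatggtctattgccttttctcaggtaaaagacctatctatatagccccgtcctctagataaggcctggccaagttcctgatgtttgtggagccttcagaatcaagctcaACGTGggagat
Ier3, chr17:35821463-35821762, plus strand: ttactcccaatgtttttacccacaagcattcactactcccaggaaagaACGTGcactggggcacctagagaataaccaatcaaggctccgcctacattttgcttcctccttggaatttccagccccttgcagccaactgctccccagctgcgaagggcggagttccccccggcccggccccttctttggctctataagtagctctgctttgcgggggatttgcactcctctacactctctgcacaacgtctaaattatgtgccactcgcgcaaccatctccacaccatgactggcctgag
Ndrg4, chr8:95677513-95677812, plus strand: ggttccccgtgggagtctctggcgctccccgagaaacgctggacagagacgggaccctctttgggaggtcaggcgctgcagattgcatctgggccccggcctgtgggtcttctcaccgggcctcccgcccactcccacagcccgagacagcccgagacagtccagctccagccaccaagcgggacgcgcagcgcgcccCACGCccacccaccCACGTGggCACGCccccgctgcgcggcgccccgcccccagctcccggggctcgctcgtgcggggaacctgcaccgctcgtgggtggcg

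The number of matches was not in the order of the differences. Fam162a, with a log2 difference of 0.77, held 6 matches, 5 of them between -81 and -19. Ankrd37 held 4, of which the matches at -155 and -152 overlap in CACGCGTG and the match at -6 lies just before the start. Ndrg2 held 3 in its second window, at -137, -103 and 26, all GCGTG on either strand, with 0 in its first window; its last window overlaps the one printed, and the 1 match there is the same bases as the match at 26. Ppp1r16b held 2, at -82 and 40, in the window printed and 0 in its other window, while Ier3, with a difference of 3.34, held 1, at -202. Ndrg4, whose groups overlapped, held 4 in its second window between -52 and -30, including the 1 E-box among the members' windows, and Ndrg3 held 2 in its second window. Mxi1 held 1 match in each of 2 of its 3 windows.

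Other known hypoxia targets outside glycolysis gave the setting for the members. This list too was chosen with earlier results of these data known, so its counts are a description. Of 36, all tested and none a member, 26 were higher and 2 lower in null heads in limma, and 8 did not pass, beside 12.3% of all genes called higher and 11.2% called lower. The 26 include Lox, which passed the filter through the null arrays alone; among genes well above background on all 6 arrays the count was 25 of 35. Their median log2 difference was 1.47, beside -0.04 over all tested genes, with 1.80, 1.51 and 1.33 within slides 1, 2 and 3. The 4 with the smallest adjusted p were Ndufa4l2, a mitochondrial subunit-like protein (4.09 ± 0.14, 7.37e-05), Car9, a cell surface carbonic anhydrase (3.40 ± 0.15, 0.000181), Ddit4, a brake on mTOR (3.09 ± 0.15, 0.000298), and Stc2, a secreted glycoprotein (3.08 ± 0.16, 0.000311). The lower genes were Angptl4, a secreted inhibitor of lipoprotein lipase (-0.89 ± 0.14, 0.00584), and the transferrin receptor Tfrc (-0.56 ± 0.15, 0.0383), whose call was lost in 8 of 16 alternative settings. Among those that did not pass were Zfp395 (1.27), Gbe1 (0.52), Higd1a (0.43), Hmox1 (0.41), Hilpda (0.35), Ak4 (0.35) and Cited2 (0.22), given as log2 differences. Zfp395, whose 4 probes read 1.27 to 1.77, was called higher in 5 alternative settings, among them the replicate block, Higd1a in 3, and Hilpda and Ak4 in 1 each. Of the genes called higher, Insig2 (0.52, limma adjusted p 0.0408) and Kdm4b (0.59, 0.0467) lost the call without any 1 null array, among other settings. Gys1 lost it without null replicate 1 or 3, and Bnip3l without null replicate 1. The count of higher genes ran from 21, without null replicate 1, to 28, with normexp.

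**Figure D5:**
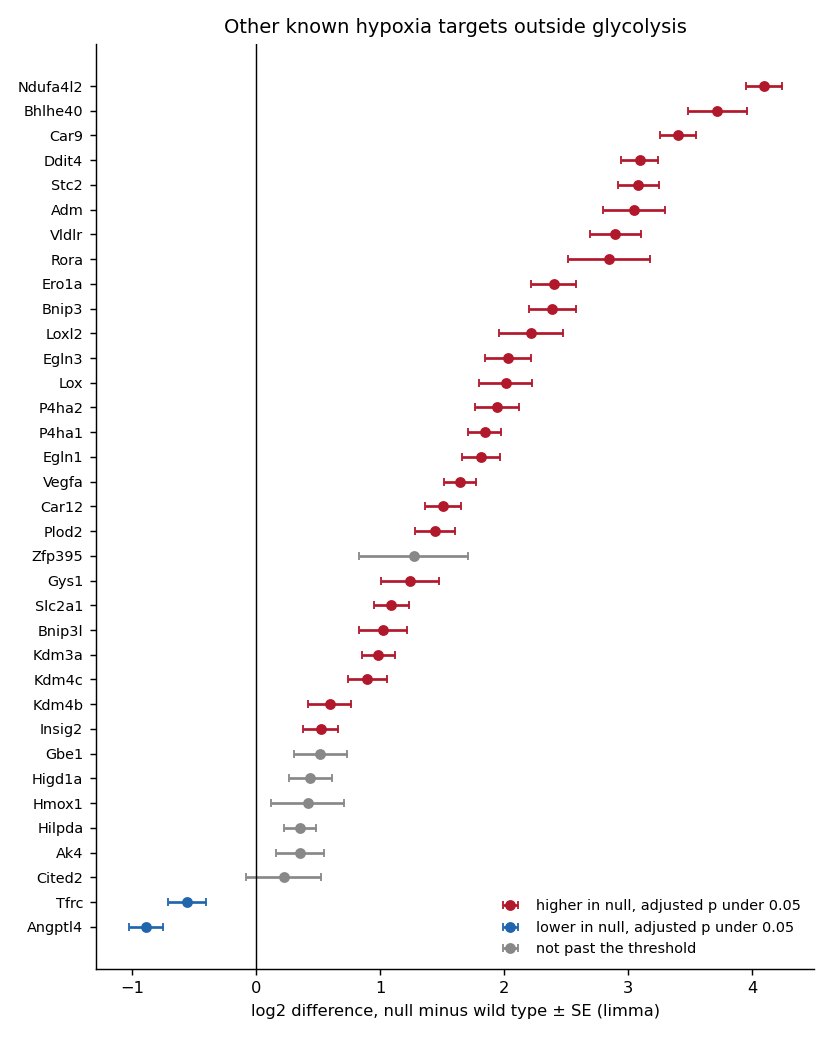
Log2 difference, null minus wild type, with its limma SE (horizontal axis) of 35 of the 36 other hypoxia targets (rows, highest on top); red marks the 26 called higher, blue the 2 called lower and grey 7 not past the threshold. Lox was not well above background on any wild type array, so it has only a bound, at least 2.03-fold higher; its log2 difference was 0.24 with normexp, under that bound, and its call was lost in 3 of 16 alternative settings (limma adjusted p up to 0.870).

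Of 14 subunits and regulators of the hypoxia-inducible factors 3 were higher, 3 were lower and 8 did not pass in limma, beside 12.3% of all genes called higher and 11.2% called lower, with a median of -0.19. The oxygen-sensing hydroxylase genes Egln1 (1.81 ± 0.15, limma adjusted p 0.000920) and Egln3 (2.03 ± 0.18, 0.00118), both also on the list above, and Hif3a (1.52 ± 0.17, 0.00238) were higher. The difference of Egln1 was 0.81 with normexp. Hif1a was lower (-0.83 ± 0.16, 0.0126), a call that did not hold when null replicate 1 or 2 was left out (up to 0.0643). The other lower genes were Egln2 (-0.59 ± 0.13, 0.0213) and Elob (-0.58 ± 0.15, 0.0311), each with a call lost in 7 of 16 alternative settings. Epas1, Arnt and Vhl stood at -0.13 ± 0.19, 0.11 ± 0.15 and -0.19 ± 0.17 and did not pass; a second Arnt probe read 1.05, and Arnt was called higher as the mean of its probes and in the deposited table.

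The genes most like Ndrg1 over the 6 arrays, by Euclidean distance between profiles centred on their means, were Bhlhe40 (distance 0.649), Adm (0.750), Adm2 (0.968), Crx (1.02) and Car9 (1.05), with members left aside. Since they were picked for likeness to this profile, their values carry no test. The log2 difference was 3.72 for the circadian repressor gene Bhlhe40, 3.05 for Adm, which encodes a vasodilator peptide, 3.29 for its relative Adm2 and 3.40 for Car9. With normexp these differences were smaller, at 2.41 for Bhlhe40, 2.11 for Adm, 1.51 for Adm2 and 2.47 for Car9. Crx, a photoreceptor homeobox gene, was not well above background on any wild type array and was at least 2.40-fold higher in null heads by the bound used here, but with normexp its log2 difference was 0.42, which lies under that bound. Wild type replicate 2 was part of the profile by which these genes were picked. For Ndrg1 that array exceeded the mean of the other wild type arrays by 1.43. The excess was 0.80 for Bhlhe40, 0.83 for Adm, 1.29 for Adm2 and 0.19 for Car9. For Crx, not well above background on these arrays, it was 0.71.

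Marker lists of the tissues in the dissection were read for the same arrays. All 10 neural progenitor and all 10 head mesenchyme markers were well above background on all 6 arrays. The counts below stand beside 12.3% of all tested genes called higher and 11.2% called lower. Of 12 early neuron markers, which bear on Ndrg4, 5 were lower and 1 higher in limma, with a median of -0.67 and a summed signal of 14.5 to 18.5 times the 75th percentile in null and 18.1 to 25.7 times in wild type heads; Elavl3 (-1.27 ± 0.16, adjusted p 0.00336) and Nhlh2 (-1.38 ± 0.21, 0.00575) had the smallest p, Elavl4, Dcx and Nefm were the other lower genes, and Mapt was the higher one. The calls of Dcx, Nefm and Mapt were each lost in 4 of 16 alternative settings and that of Elavl4 in 5. The part of this shift in the difference of Ndrg4 was not tested. Of 10 progenitor markers 4 were lower in limma (Sox1, Sox3, Nes, Fabp7) and 1 higher (Otx2), with a summed signal of 58.5 to 63.3 in null and 74.1 to 83.4 in wild type heads. Pax6, which did not pass, read 0.23 as a log2 difference on its brightest probe and 1.81 on a dimmer one. Of 10 mesenchyme markers 4 were lower (Prrx1, Dlx1, Dlx2, Barx1) and 1 higher (Msx2), with sums of 19.1 to 19.3 in null and 19.7 to 21.7 in wild type heads. The second Prrx1 probe read 0.68, and the Prrx1 call was lost in 3 of 16 alternative settings, that of Msx2 in 2, that of Otx2 in 7 and that of Sox1 in 3. The part of these lists in the members' values was not tested. Of 9 tested heart markers 0 passed in limma (2 at an unadjusted p under 0.05), with a summed signal of 2.05 to 2.30 times the 75th percentile in null and 1.48 to 5.51 times in wild type heads; Myl7 was well above background on 0 null and 2 wild type arrays and was not tested. Of 10 erythroid markers only Klf1 passed, as lower (-1.04 ± 0.24, 0.0216), and it did not pass with dim probes unfiltered or with null replicate 1 or 3 left out (up to 0.0833); the summed erythroid signal was 422 to 858 in null and 537 to 742 in wild type heads.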

How the data were processed

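Heads from 3 Arid3b-null and 3 wild type pools were measured on Agilent arrays. Per the file headers, Feature Extraction 10.7.3.1 made the processed intensity of each spot by subtracting background and a spatial trend, and the files also hold median foreground and background intensity.

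The members and lists were chosen with earlier results of these data known. Log2 intensity was centred on each array's 75th percentile. Control spots and outliers marked by the scanner (84 to 156 an array) were dropped, and repeated spots averaged. Of 39429 probes, 26424 got 1 gene symbol through a RefSeq accession (assembly GRCm38.p6, used for names), 0 several and 13005 none. A probe was kept if well above background on all 3 arrays of 1 group or both, with values on 5 arrays or more, and the brightest kept probe stood for each of 14906 genes. Limma 3.58.1 in R 4.3.3 (lmFit, eBayes) was fitted to all 6 arrays and tested on simulated data, with Benjamini-Hochberg adjusted p under 0.05. The number of arrays limits the precision.

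For a gene seen above background in null heads alone, the fold is a bound: its null mean over a wild type mean in which each array contributes its own signal or, if larger, the dimmest signal called well above background there. Named genes are the members, Arid3b, up to 4 called genes with the smallest p per list and the 5 nearest to Ndrg1; the rest were picked with their values in view.

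As alternatives, normexp (offset 50) ran on median intensity, and the authors' deposited log2 table replaced the scanner signal. Its 24181 rows followed the log2 scanner signal of the same array with slopes of 0.996 to 1.05, which gives log2 scale and no centring per gene; column medians were 6.76 to 6.77, and the scaling between arrays remains unknown. Identity of the Ndrg proteins was planned and is not analysed here. The values of 1 listed gene are not reported here, though counts and medians include it.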

Additional observations from a re-analysis of the deposited data

How the results depend on the processing

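The 16 alternatives were other scalings, normexp, the deposited table, other filters and probe rules, an intensity trend, array weights, a replicate block and leaving out each array. The number of genes called, 3506, was 6685 with array weights and 2270 with dim probes unfiltered. It was 1465, 1838 and 1857 without null replicates 1, 2 and 3, and 2147, 2209 and 5211 without wild type replicates 1, 2 and 3. The number of other hypoxia targets called higher stayed within 21 to 28. The excess of Ndrg1 over the mean of its paralogues was 2.22 (array weights) to 3.25 (without wild type replicate 2); the deposited table gave none, since Ndrg3 was not tested there. No tested member changed sign in any alternative. Normexp lowered the differences of Ier3 to 2.27, Ppp1r16b to 2.71 and Ndrg2 to 2.40, and left Ndrg1 at 3.24 and Ankrd37 at 1.92.

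Null and wild type arrays of 1 replicate number shared a slide. With the replicate block 3689 genes were called, 3171 of them among the 3506, 27 other hypoxia targets were higher, and the Ndrg1 excess was 2.73. Deviations from the group means correlated at -0.20, 0.15 and 0.42 across genes for numbers 1, 2 and 3, and null 2 correlated best with wild type 1 (0.49), so the numbers were not taken as pairs. Signal close to background limits the wild type values of Ier3 and Ppp1r16b and all values of Mxi1.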

Other observations

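Wild type replicate 2 was the highest wild type array for 3 of 8 tested members, Ndrg1, Ier3 and Ppp1r16b, and for 18 of the 36 other hypoxia targets (50%), beside 3199 of 14898 genes with a value on all arrays (21.5%). The median excess of that array over the mean of the other wild type arrays was 0.17 log2 units for the 36 targets and 0.00 for all genes; for Ndrg1 it was 1.43, for Ier3 0.54, for Ppp1r16b 0.49, for Fam162a 0.28 and for Ndrg2 -0.33. This was seen in the data and not tested. Wild type replicate 1 was the highest wild type array for 4 of the 8 members and 6379 of all genes.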
